A study of Mus musculus with 89 samples.

Results

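The 40 germline and meiosis genes here are those of 54146 genes in the data whose symbol is on a list of genes used mainly in germ cells. The list was chosen with earlier results of these data known. Shares of members beside those of all genes are therefore description, and not a test of the list. The 40 genes were followed in RNA-seq of mouse embryonic stem cells (ESCs) from 20 libraries. All cells were EKOiE, a line without functional endogenous Esrrb that carries a transgene for this orphan nuclear receptor under doxycycline (Dox) control. With Dox at 1 µg/ml, EKOiE cells were called +E+N, and after 2 days without Dox they were called −E. In EKOiE NrKO cells both alleles of Nr5a2, a related receptor, carry deletions in an exon for the DNA-binding domain, and these cells were called −N with Dox and −E−N after 2 days without it. The NrKO cells are clonal, so effects of the clone and of losing Nr5a2 cannot be told apart. Each of the 4 states was measured in serum with LIF (FCS/LIF, 2 libraries a state) and in LIF with inhibitors of Mek and Gsk3 (2i/LIF, 3 libraries a state). The media were grown apart, so that medium and culture batch cannot be told apart.

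Germ cells protect their genome from transposons with piRNAs, small RNAs bound by Piwi proteins, which are made in cytoplasmic granules built by Tudor domain proteins and RNA helicases. In meiosis, homologous chromosomes are organised along an axis of cohesin and Hormad proteins, are cut by Spo11 and paired by the synaptonemal complex. In ESCs many of these genes are held in check by DNA methylation of their promoters and by a Polycomb complex that contains Mga, Max and E2f6, and the methyltransferases Dnmt3a and Dnmt3b with their cofactor Dnmt3l add new methylation. Stra8, induced by retinoic acid, and the RNA-binding protein Dazl act at the entry into meiosis.

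Depth was 36514172 to 45443379 counts a library for FCS/LIF, and 26653035 to 32526534 for 2i/LIF. Levels in CPM are the deposited counts per 1e+06 counts, scaled by TMM over all 20 libraries. Esrrb was measured at 271 and 353 CPM in FCS/LIF +E+N and at 74.2 and 65.1 CPM in −E, a log2 fold change of -2.18 ± 0.13 (SE; adjusted p = 2.75e-05, edgeR). In 2i/LIF it was at 515, 609 and 605 CPM in +E+N and at 441, 434 and 380.4 CPM in −E, which was not called (-0.46 ± 0.16, adjusted p = 0.116), and at 171, 161 and 104 CPM in −E−N. The gene count does not tell transgene from endogenous transcripts. Nr5a2 still had 25.6 to 27.2 CPM in FCS/LIF −N and 63.9 to 78.4 CPM in 2i/LIF −N. A count over the whole gene does not check the loss of part of an exon. With qPCR in the deleted region, the paper detected no intact Nr5a2 transcripts in the knockout clones. Summed over 8 pluripotency markers, the libraries lay between 1326 and 3339 CPM in FCS/LIF and between 1855 and 4604 CPM in 2i/LIF, lowest in −E−N of each medium. Summed over 6 spermatid markers the highest library had 0.338 CPM, and of 6 oocyte markers Oosp1 was at 0 in every library and Zp3 alone reached the minimum for testing.

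Transcripts of the germline genes were common in these ESCs, although most were at a low level. Between 28 and 30 of the 40 members had a mean of at least 1 TPM, a unit that corrects for transcript length and library size, in each of the 8 groups. At least 10 TPM was reached by 7 to 10 members in the 4 FCS/LIF groups and by 12 to 14 in the 4 2i/LIF groups. Per length, Rpl10l, a retrogene of the ribosomal protein gene Rpl10 that replaces it during meiosis in the testis, was the highest, with 113 TPM in FCS/LIF +E+N and 359.6 TPM in 2i/LIF +E+N. Tex19.1, which protects germ cells against retrotransposons, had 53.6 and 83.4 TPM, and Syce2 of the synaptonemal complex had 57.3 and 80.8 TPM. Tdrd6, Figla and Nobox were never tested: their highest count in any library was 19, 11 and 8. The other 37 members reached 20 counts in all replicates of at least 1 group, 33 of them in FCS/LIF and 36 in 2i/LIF. Asz1, Tdrd9, Tex12 and Spo11 were tested in 2i/LIF alone among the single-medium fits, and Dmrtb1 in FCS/LIF alone.

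**Figure D1:**
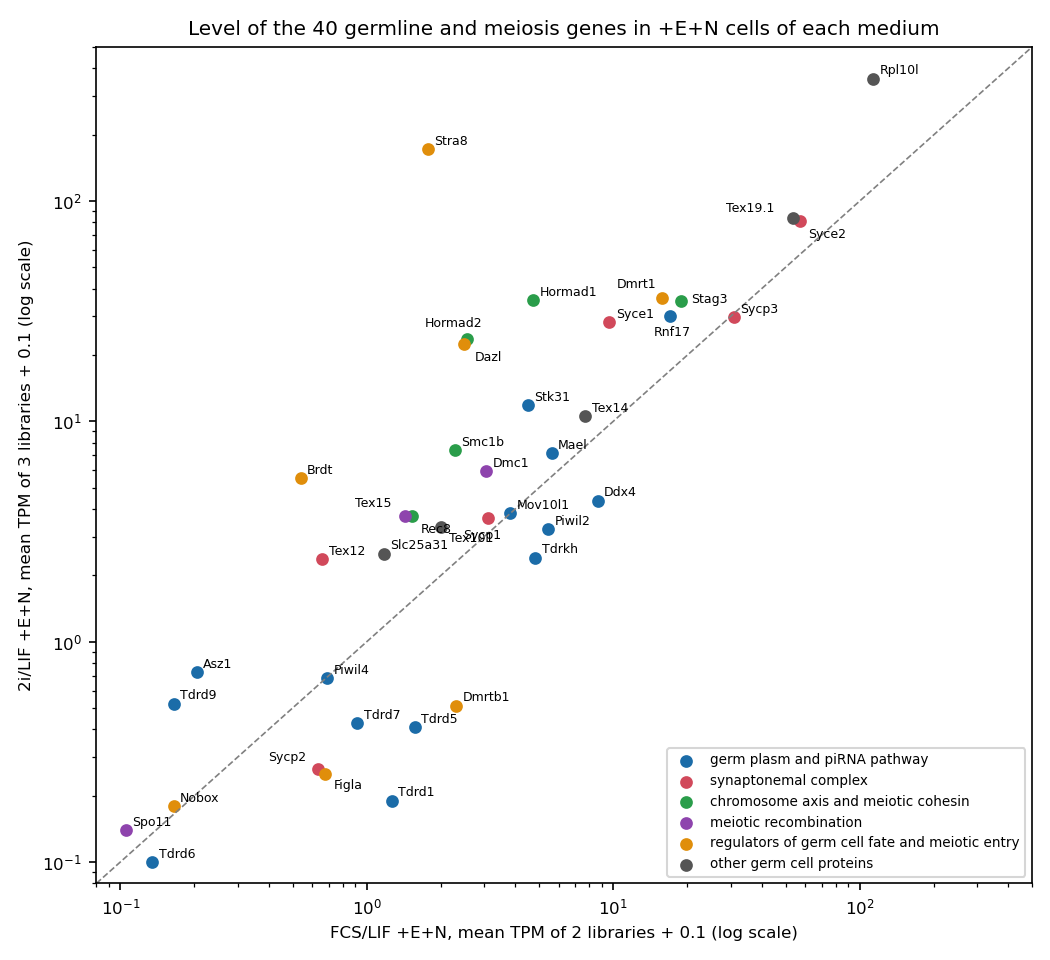
Mean TPM (plus 0.1, log scales) of the 40 members in +E+N cells of FCS/LIF (x axis, 2 libraries) and 2i/LIF (y axis, 3 libraries), coloured by role, with a dashed line where both are equal. Stra8 lies farthest above the line, and Tdrd1, Tdrd5, Tdrd7, Tdrkh, Ddx4 and Dmrtb1 lie below it.

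RefSeq gave a promoter of 300 bases (250 before to 50 after the start, GRCm38.p6, the build called mm10) for 34 of the 40 members. Tdrd6, Piwil2, Rnf17, Spo11, Tex15 and Dmrt1 are not in that table. Both strands were searched for CACGTG, the E-box that Max heterodimers can bind, for TCCCGC, a site of E2F factors, and for TCAAGGTCA and TCAAGGCCA, sites of the Esrrb and Nr5a2 kind. CACGTG reads the same on both strands, and the last pair of motifs differs in 1 base. For a gene with several RefSeq starts, a match in any of its windows counted, and its highest number of CpG was taken. CACGTG was in the promoter of 14 of 34 members (41.2%), against 11.5% of the 11498 tested genes with a promoter and 8.09% of all 27025 genes in the promoter table. TCCCGC was in 16 of 34 (47.1%), against 39.1% of tested genes and 22.05% of all genes. TCAAGGTCA and TCAAGGCCA were in none of the 34, and in 0.322% and 0.487% of tested genes. The members had a median of 20.5 CpG by this number per gene, against 21 in tested genes and 8 in all genes. A match is a description of letters in this window, and binding was not analysed here.

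The promoters of the 4 members called in most comparisons among those with a promoter (ties by level) are shown from 5′ to 3′ on the strand of the gene, with matches to the motifs in capitals. Smc1b, the meiotic cohesin subunit, lies on the minus strand (chr15:85131908-85132207), with TCCCGC beginning 47 bases before the start and 29 CpG. Tdrd1, a Tudor protein of the piRNA granules, lies on the plus strand (chr19:56825959-56826258, the first of its RefSeq starts), with CACGTG beginning 11 bases before the start and 20 CpG. Rpl10l lies on the minus strand (chr12:66284352-66284651), with TCCCGC beginning 43 bases before the start and 13 CpG. Dazl lies on the minus strand (chr17:50293571-50293870), with none of the motifs in this window and 28 CpG.
Smc1b: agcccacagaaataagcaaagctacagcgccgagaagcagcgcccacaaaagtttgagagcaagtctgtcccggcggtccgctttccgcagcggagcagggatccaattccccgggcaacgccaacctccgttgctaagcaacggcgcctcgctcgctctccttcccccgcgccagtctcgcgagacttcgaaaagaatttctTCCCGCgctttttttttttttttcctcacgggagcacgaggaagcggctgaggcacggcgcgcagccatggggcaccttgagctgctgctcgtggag
Tdrd1: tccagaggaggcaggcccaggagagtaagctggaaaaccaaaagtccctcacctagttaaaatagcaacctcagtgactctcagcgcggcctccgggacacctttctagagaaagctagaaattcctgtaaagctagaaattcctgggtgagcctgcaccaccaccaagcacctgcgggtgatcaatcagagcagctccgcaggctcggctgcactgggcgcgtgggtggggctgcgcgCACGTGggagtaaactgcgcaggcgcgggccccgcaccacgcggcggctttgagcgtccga
Rpl10l: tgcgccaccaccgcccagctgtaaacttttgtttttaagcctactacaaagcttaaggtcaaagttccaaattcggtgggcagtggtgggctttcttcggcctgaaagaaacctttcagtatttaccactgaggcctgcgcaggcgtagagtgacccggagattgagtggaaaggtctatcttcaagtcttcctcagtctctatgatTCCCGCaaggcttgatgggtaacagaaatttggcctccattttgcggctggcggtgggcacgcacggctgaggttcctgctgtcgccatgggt
Dazl: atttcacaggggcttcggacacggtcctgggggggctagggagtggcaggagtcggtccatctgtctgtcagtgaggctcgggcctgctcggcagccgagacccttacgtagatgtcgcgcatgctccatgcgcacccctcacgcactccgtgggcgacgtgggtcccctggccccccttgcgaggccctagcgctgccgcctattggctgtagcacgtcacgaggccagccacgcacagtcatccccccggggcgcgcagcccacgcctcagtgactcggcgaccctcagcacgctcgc

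The first comparison asked how the levels in +E+N cells differ between the media. In 2i/LIF, 20 of the 37 members tested were higher than in FCS/LIF (54.1%), against 17.2% of all 16147 tested genes, and 6 were lower (16.2%), against 17.5%. A gene was called at a Benjamini-Hochberg adjusted p under 0.01 and a fold change over 1.5 in edgeR's quasi-likelihood test. The median log2 fold change over the 37 was 1.03, and over all tested genes 0.01. Of the 37, 8 reached 20 counts in only one of the +E+N groups or in neither, and such a member tends to differ. They were Asz1, Dmrtb1, Spo11, Sycp2, Tdrd1, Tdrd7, Tdrd9 and Tex12. Of the 29 that reached it in both, 17 were higher and 3 lower, against 17.9% and 12.6% of all genes that did so. In bulk samples, fewer cells with a transcript and less of it per cell cannot be told apart.

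Genes of the chromosome axis and the meiotic cohesin were all higher in 2i/LIF, 5 of 5, against 17.2% of all tested genes. Hormad1, an axis protein that monitors pairing, was at 4.11 and 4.98 CPM in FCS/LIF and at 30.2, 37.4 and 40.3 CPM in 2i/LIF, a log2 fold change of 2.98 ± 0.14 (adjusted p = 3.12e-11). Hormad2, its relative, was at 1.15 and 1.56 CPM against 15.6, 12.5 and 11.6 CPM (3.28 ± 0.20, adjusted p = 7.74e-10). The libraries of the media did not overlap for either gene, with every 2i/LIF library several times above both FCS/LIF libraries. Smc1b was at 6.59 and 7.85 CPM against 21.4, 23.2 and 23.6 CPM (1.65 ± 0.17, adjusted p = 2.94e-07). Stag3, the meiotic cohesin subunit, was at 27.8 and 28.1 CPM against 50.8, 61.0 and 62.6 CPM (1.06 ± 0.20, adjusted p = 0.000215). Rec8, the cohesin kleisin of meiosis, was at 1.65 and 2.27 CPM against 3.85, 5.02 and 5.36 CPM (1.27 ± 0.31, adjusted p = 0.00226). For Smc1b, Stag3 and Rec8 too, every 2i/LIF library was above both FCS/LIF libraries.

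Among regulators of germ cell fate and meiotic entry the media differed widely, with 4 higher and 1 lower of 5 tested. The shares of all tested genes were 17.2% higher and 17.5% lower. Stra8 was at 1.28 and 1.33 CPM in FCS/LIF and at 67.5, 176 and 210.1 CPM in 2i/LIF (6.85 ± 0.76, adjusted p = 8.39e-07). Dazl was at 4.68 and 6.42 CPM against 36.0, 64.6 and 58.0 CPM (3.25 ± 0.28, adjusted p = 3.5e-08). The 2i/LIF libraries of Stra8 differed among themselves by more than those of any axis gene, but the lowest was still far above FCS/LIF. Dmrt1, a DM domain factor of the gonad, was at 32.2 and 24.7 CPM against 58.5, 74.7 and 65.4 CPM (1.22 ± 0.18, adjusted p = 1.97e-05). Brdt, the testis bromodomain protein, rose from 0.964 to 1.15 CPM in FCS/LIF to a range of 6.07 to 19.4 CPM (3.47 ± 0.59, adjusted p = 8.93e-05). Dmrtb1, which is needed for the switch from mitosis to meiosis in spermatogonia, went the other way, from 1.78 to 3.10 CPM in FCS/LIF to 0.128 to 0.906 CPM in 2i/LIF (-2.28 ± 0.65, adjusted p = 0.00624).

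The germ plasm and piRNA genes split between the media, with 4 higher and 5 lower in 2i/LIF of 13 tested. Of all tested genes, 17.2% were higher and 17.5% lower. Asz1, Tdrd9, Tdrd1 and Tdrd7 did not reach 20 counts in every library of both +E+N groups. Among the others called, Rnf17 and Stk31 were higher, and Ddx4, Tdrd5 and Tdrkh lower. Rnf17, a Tudor and RING domain protein of germ cell granules, was at 31.3 and 31.4 CPM in FCS/LIF and at 72.1, 59.99 and 59.5 CPM in 2i/LIF (1.03 ± 0.09, adjusted p = 6.53e-08). Stk31, a Tudor protein with a kinase domain, was at 7.82 and 8.10 CPM against 16.7, 24.6 and 25.5 CPM (1.48 ± 0.16, adjusted p = 6.76e-07). Tdrd9, a helicase of the piRNA pathway, had 0.235 to 0.275 CPM against 1.35 to 1.95 CPM. Asz1, a protein of the granules beside mitochondria, had 4 counts over both FCS/LIF libraries and 68 over the 3 2i/LIF libraries, a ratio of 16.0 with an exact 95% counting interval of 5.98 to 60.5. Lower in 2i/LIF were several Tudor proteins and a helicase. Ddx4, the germ plasm helicase Vasa, was at 17.8 and 23.2 CPM in FCS/LIF and at 8.16, 11.6 and 10.8 CPM in 2i/LIF (-1.01 ± 0.20, adjusted p = 0.000314). Tdrkh, a Tudor protein that helps to trim piRNAs, was at 4.89 and 7.07 CPM against 1.57, 3.01 and 3.73 CPM (-1.12 ± 0.33, adjusted p = 0.00818). Of its exonic bases 36.7% overlap Oaz3 on the other strand. Tdrd1 fell furthest, from 4.73 to 4.77 CPM in FCS/LIF to 0.209 to 0.595 CPM in 2i/LIF (-3.71 ± 0.25, adjusted p = 2.75e-09). Tdrd5 (3.45 to 4.93 CPM against 0.707 to 1.15 CPM) and the related Tdrd7 (1.36 to 1.93 CPM against 0.385 to 0.766 CPM) were also called lower.

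Of the synaptonemal complex, 2 of 6 tested genes were called, both higher in 2i/LIF, against 17.2% of all tested genes higher and 17.5% lower. The number called is near the share of all tested genes called in either direction (5607 of 16147). Syce1, a central element protein, was at 10.4 and 9.34 CPM in FCS/LIF and at 24.4, 27.4 and 29.2 CPM in 2i/LIF (1.45 ± 0.16, adjusted p = 9.07e-07). Tex12, another central element protein, had 0.252 to 0.340 CPM against 1.12 to 1.60 CPM. Sycp3, the lateral element protein, was at 19.12 and 25.3 CPM in FCS/LIF and at 24.0, 23.9 and 20.4 CPM in 2i/LIF, with overlapping ranges, a difference of 0.03 on the log2 scale and a 95% interval of -0.29 to 0.36. Of the recombination genes, the strand exchange protein Dmc1 (3.30 to 5.57 CPM against 8.26 to 8.90 CPM) and Tex15 (5.31 to 6.68 CPM against 13.8 to 16.1 CPM), a partner of the piRNA pathway that is also needed for break repair, were higher in 2i/LIF. Among the other germ cell proteins, Rpl10l was at 67.6 and 78.1 CPM in FCS/LIF and at 249.7, 242 and 242 CPM in 2i/LIF (1.75 ± 0.10, adjusted p = 2.65e-10). Its reads resemble those of Rpl10, which lay at 1392 to 1409 CPM and at 1489 to 1532 CPM, so that the division of reads between them by estimation makes its count less certain. Tex19.1 was at 68.1 and 65.2 CPM against 108, 108 and 102 CPM (0.67 ± 0.15, adjusted p = 0.000848). Slc25a31, the testis ADP/ATP carrier, had 1.61 to 1.88 CPM against 3.31 to 4.39 CPM and was called higher.

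A list of 22 genes, labelled repressors of germline genes, also holds Tet1 and Tet2, enzymes that act to remove DNA methylation. Of the 22, 2 (Tet2 and Uhrf1) were higher and 6, Tet1 among them, were lower in 2i/LIF +E+N. The shares of all tested genes were 17.2% and 17.5%. Dnmt3l was at 566 to 575 CPM in FCS/LIF +E+N and fell by 4.80 on the log2 scale in 2i/LIF (adjusted p = 1.37e-11), Dnmt3b fell by 2.56 (adjusted p = 1.82e-11) and Dnmt3a by 2.23 (adjusted p = 2.24e-11). The part of these enzymes in the levels of the members was not tested. Summed over 11 markers of 2-cell-like cells, FCS/LIF +E+N libraries had 43.5 to 75.1 CPM and 2i/LIF +E+N libraries 11.7 to 19.6 CPM. The 6 members called lower in 2i/LIF, Tdrd1, Tdrd5 and Tdrd7 among them, share this direction, and the 20 called higher do not. The part of such cells in the levels of the members was not tested.

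**Figure D2:**
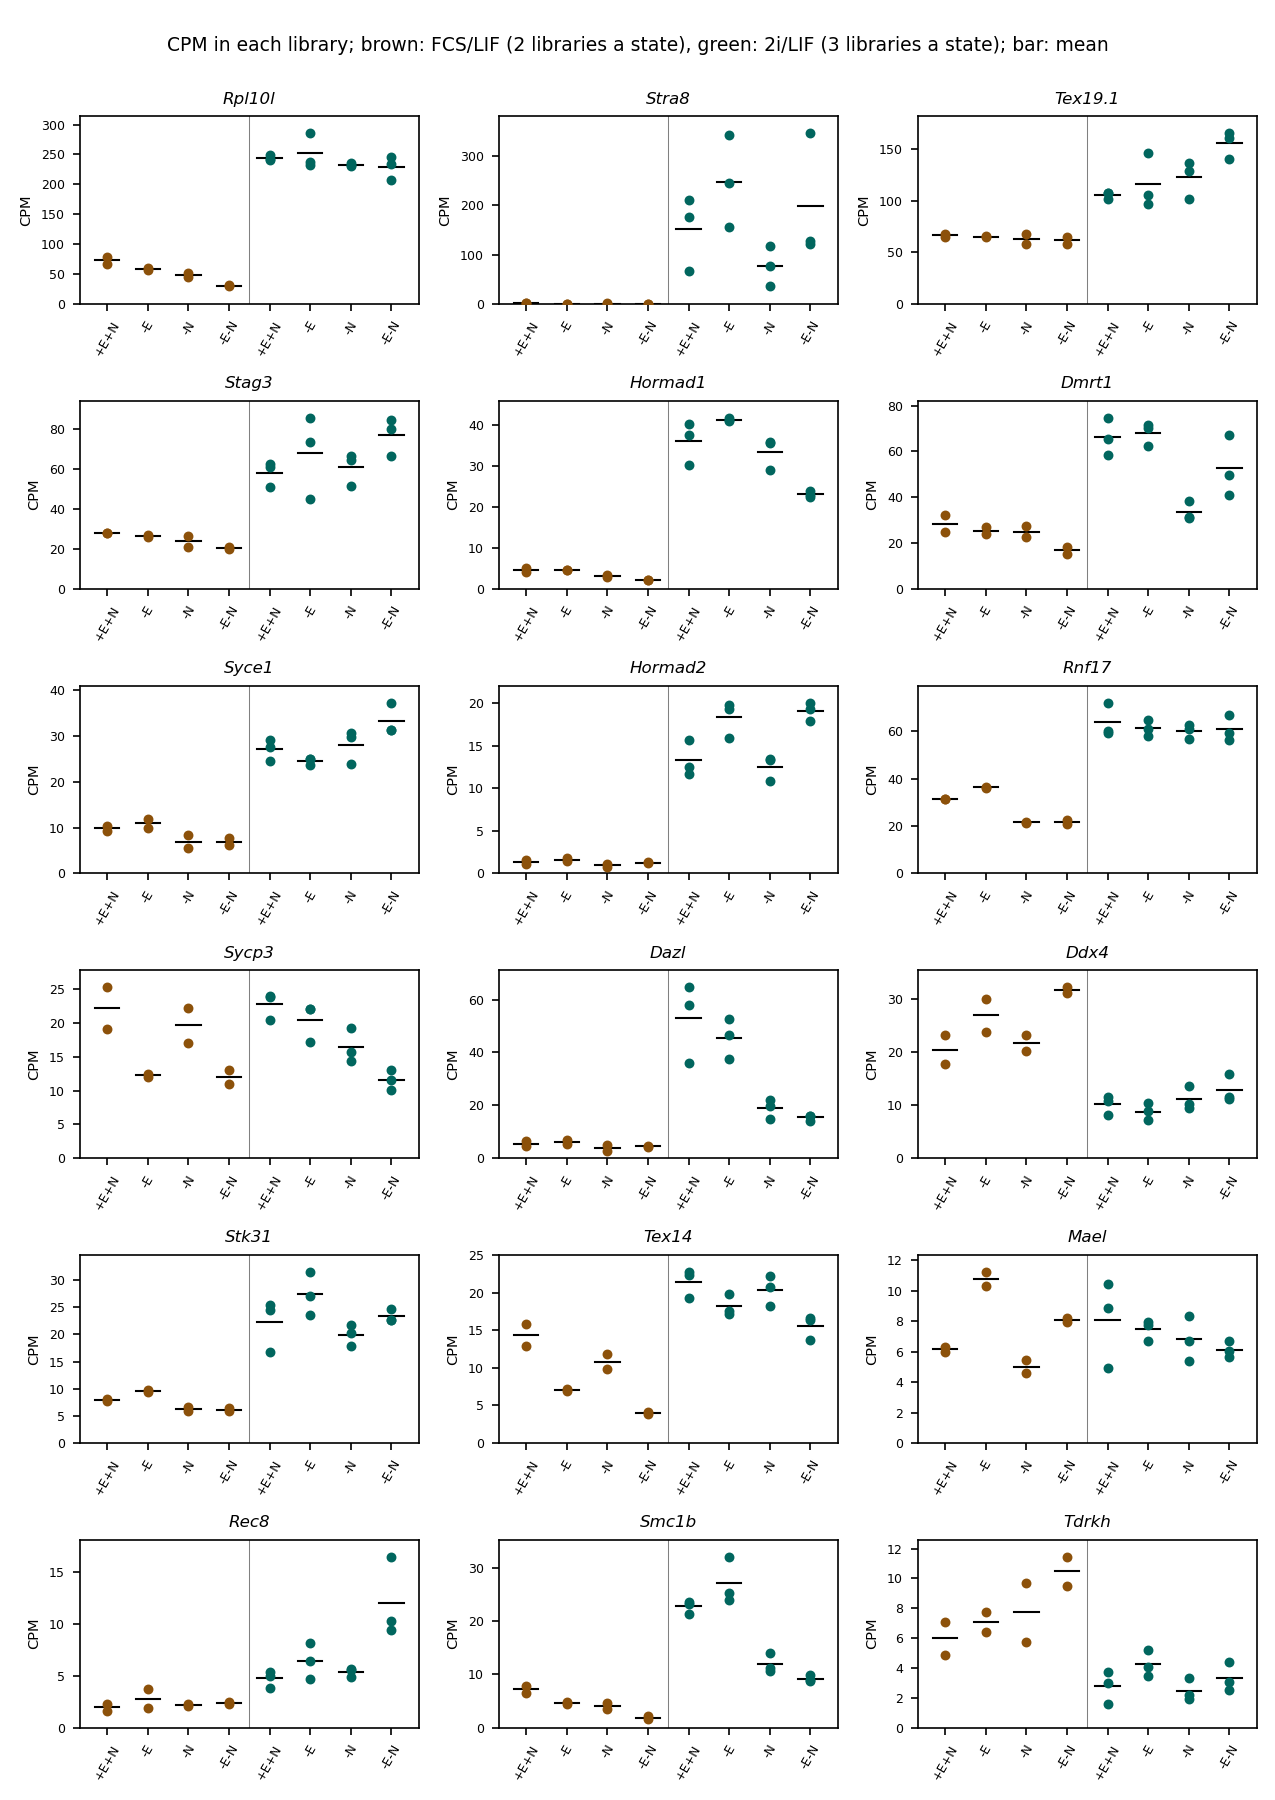
CPM (y axes, from 0) in every library for the 18 members that were called in at least 1 comparison and had the highest mean TPM in any group, by state (x axes), with brown points for FCS/LIF, green points for 2i/LIF and a bar at the mean. Stra8 lies between 0.21 and 1.33 CPM in FCS/LIF, which its axis shows as near 0, and Dazl and Smc1b are lower in 2i/LIF −N and −E−N than in +E+N and −E.

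The states were then compared within each medium, and the same +E+N libraries served all 3 comparisons with the other states. In FCS/LIF, the loss of Esrrb alone changed 5 of 33 members. Higher were 3 (9.09%), against 3.23% of all 15636 tested genes, and lower were 2 (6.06%), against 2.53%. The median log2 fold change was 0.20 over the 33 members and -0.00 over all tested genes. Mael, a piRNA pathway protein, was at 6.33 and 5.96 CPM in +E+N and at 10.3 and 11.2 CPM in −E (0.79 ± 0.13, adjusted p = 0.00355). Tdrd1 rose from 4.73 to 4.77 CPM to 7.30 to 7.98 CPM (0.67 ± 0.12, adjusted p = 0.00593), and Tex15 from 5.31 to 6.68 CPM to 10.2 to 11.6 CPM (0.84 ± 0.15, adjusted p = 0.00533). Tex14, which is needed for the bridges between germ cells, fell from 12.9 and 15.9 CPM to 6.90 and 7.15 CPM (-1.05 ± 0.14, adjusted p = 0.0015), and Sycp3 from 19.12 and 25.3 CPM to 12.5 and 12.04 CPM (-0.88 ± 0.17, adjusted p = 0.00728). In each of these genes, picked by their calls on the same libraries, both −E libraries lay outside the range of +E+N. The count rested on single libraries, with 0 called without either −E library and 2 without either +E+N library or either −E−N library. Markers of 2-cell-like cells had a summed 105 to 185 CPM in −E and 3 of their 10 tested genes were called higher, the part of which in the rises was not tested.

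The loss of Nr5a2 alone in FCS/LIF called 0 of 33 members in edgeR, against 0.0767% of all tested genes higher and 0.0959% lower. At an unadjusted p under 0.05 there were 11 members, DESeq2 called 1 (Rpl10l, lower), and limma on log2(TPM + 1) or log2(TPM + 0.1) called 0. Of the 33, 25 were below +E+N in their fitted change, with a median of -0.31 against -0.01 over all tested genes. Rpl10l was at 45.7 and 52.0 CPM in −N and at 67.6 and 78.1 CPM in +E+N (-0.60 ± 0.09, adjusted p = 0.0224). Smc1b was at 3.49 and 4.67 CPM in −N and 6.59 and 7.85 CPM in +E+N (-0.84 ± 0.19, adjusted p = 0.0691). Neither passed the threshold in this fit, and their libraries did not overlap. Markers of 2-cell-like cells had a summed 31.5 to 36.1 CPM in −N, against 43.5 to 75.1 CPM in +E+N. Of 10 tested, 0 were called, and their part in the levels of the members was not tested.

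The loss of both factors in FCS/LIF changed 11 of 33 members. Higher were 4 (12.1%), close to the 12.4% of all tested genes, and lower were 7 (21.2%), against 6.4%. The median over the members was -0.12, against 0.00 over all tested genes. Of the 32 members with 20 counts or more in every library of both states, 4 were higher and 6 lower, against 11.9% and 6.03% of all such genes. The lower members came from several roles: Smc1b and Hormad1 of the axis, Sycp3 of the synaptonemal complex, Stra8 and Dmrt1 among the regulators, and Tex14 and Rpl10l. Smc1b fell from 6.59 and 7.85 CPM in +E+N to 1.63 and 2.15 CPM in −E−N (-1.95 ± 0.21, adjusted p = 0.000126). Tex14 fell from 12.9 and 15.9 CPM to 4.15 and 3.83 CPM (-1.87 ± 0.15, adjusted p = 2.89e-05). Stra8, at 1.28 and 1.33 CPM in +E+N, fell to 0.210 and 0.346 CPM (-2.23 ± 0.33, adjusted p = 0.000686). It had 8 and 14 counts in −E−N, and is the member left out of the 32. For Smc1b and Tex14, both single losses gave levels between those of +E+N and −E−N. Rpl10l fell from 67.6 and 78.1 CPM to 29.5 and 32.0 CPM (-1.26 ± 0.10, adjusted p = 1.96e-05), while Rpl10 itself changed by -0.29 ± 0.05 (adjusted p = 0.00102), under the fold limit. Hormad1 fell from 4.11 and 4.98 CPM to 2.18 and 2.20 CPM (-1.07 ± 0.17, adjusted p = 0.00121), and Dmrt1 from 32.2 and 24.7 CPM to 18.4 and 15.3 CPM (-0.77 ± 0.15, adjusted p = 0.0031).

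Sycp3 fell in FCS/LIF −E−N to 13.0 and 10.98 CPM (-0.91 ± 0.17, adjusted p = 0.00232). Of its exonic bases 52.2% overlap Chpt1 on the other strand. The paper describes the libraries as stranded, but the strand setting of the counting is not given in the sources used here. Chpt1 itself changed by -0.04 ± 0.14 there, and by -0.82 ± 0.12 in 2i/LIF −E−N, where Sycp3 fell as well. The higher members in FCS/LIF −E−N were Ddx4, Tdrd1 and Tdrd7, which are 3 of the 11 germ plasm and piRNA members tested, and Tex15. The share of all tested genes called higher was 12.4%. Ddx4 rose from 17.8 and 23.2 CPM to 31.1 and 32.2 CPM (0.61 ± 0.15, adjusted p = 0.00846). Tdrd1 rose to 8.65 to 8.98 CPM (0.87 ± 0.12, adjusted p = 0.000511), Tdrd7 from 1.36 to 1.93 CPM to 3.66 to 4.85 CPM (1.35 ± 0.24, adjusted p = 0.00183), and Tex15 to 11.4 to 12.6 CPM (0.98 ± 0.15, adjusted p = 0.000859). The ranges of +E+N and −E−N did not overlap for any of the 11, which were picked by their calls on the same libraries. Without replicate 2 of −E−N the count was 7. The pluripotency markers were at a summed 1326 to 1472 CPM in −E−N, against 3158 to 3339 CPM in +E+N. Trophectoderm markers were at 1349 to 2095 CPM, against 371 to 423 CPM. Markers of 2-cell-like cells were at 72.3 to 88.2 CPM, against 43.5 to 75.1 CPM, and 0 of 10 tested were called. The part of these markers' cells in the changes of the members was not tested.

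Set against −N in FCS/LIF, the withdrawal of Dox from NrKO cells called 6 of 33 members. Higher were 2 (6.06%), against 6.57% of all tested genes, and lower were 4 (12.1%), against 3.49%, with a median of 0.09 over the members and 0.02 over all tested genes. Mael rose from 5.46 and 4.57 CPM in −N to 7.97 and 8.19 CPM in −E−N (0.69 ± 0.13, adjusted p = 0.00481), and Tex15 from 6.69 to 7.75 CPM to 11.4 to 12.6 CPM (0.73 ± 0.15, adjusted p = 0.00638). Tex14 fell from 9.82 and 11.9 CPM (-1.44 ± 0.15, adjusted p = 0.000269), Smc1b from 3.49 and 4.67 CPM (-1.11 ± 0.21, adjusted p = 0.00484), Stra8 from 0.722 and 1.02 CPM (-1.63 ± 0.34, adjusted p = 0.00722) and Rpl10l from 45.7 and 52.0 CPM (-0.67 ± 0.10, adjusted p = 0.00115). This count too rested on single libraries. It was 10 without either +E+N library, 3 without either −E library, 1 without replicate 1 of −E−N or replicate 2 of −N, and 2 without replicate 2 of −E−N.

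In 2i/LIF the loss of Esrrb alone called 0 of 36 members in edgeR, against 0.439% of all 14355 tested genes higher and 1.11% lower. The median was 0.21 over the members and 0.01 over all tested genes. At an unadjusted p under 0.05 there were 6, and DESeq2 and both limma fits called 0. When the replicate number entered the fit as a block, 1 was called, Tdrd5, a Tudor protein of the piRNA pathway. Tdrd5 was at 0.707 to 1.15 CPM in +E+N and 1.25 to 2.81 CPM in −E. Over all tested genes the block raised the calls from 63 to 242 higher and from 160 to 354 lower. Dazl was at 37.5, 52.6 and 46.7 CPM in −E, within the range of +E+N, and Stra8 at 156, 245 and 341 CPM, with overlapping ranges.

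The loss of Nr5a2 in 2i/LIF was followed by lower levels of 3 members and a higher level of 1. Higher was Piwil4 (2.78%), against 1.61% of all tested genes, and lower were Dazl, Dmrt1 and Smc1b (8.33%), against 2.04%, with a median of -0.12 over the members and -0.00 over all tested genes. Dazl fell from 36.0, 64.6 and 58.0 CPM in +E+N to 14.9, 19.7 and 22.0 CPM in −N (-1.49 ± 0.21, adjusted p = 0.000763). Smc1b fell from 21.4, 23.2 and 23.6 CPM to 10.6, 11.2 and 14.05 CPM (-0.94 ± 0.13, adjusted p = 0.000949). Dmrt1 fell from 58.5, 74.7 and 65.4 CPM to 30.8, 31.5 and 38.6 CPM (-0.98 ± 0.16, adjusted p = 0.00221). For all of these, picked by their calls on the same libraries, each −N library was below every +E+N library. Piwil4, the Piwi protein that directs DNA methylation of transposons in fetal germ cells, rose from 0.867 to 1.95 CPM to 3.63 to 5.10 CPM (1.81 ± 0.32, adjusted p = 0.00342). In this comparison same-numbered libraries deviated together, and blocking on that number gave 9 called members. They were 2 higher (Piwil4 and Tdrd1) and 7 lower (Brdt, Dazl, Dmc1, Dmrt1, Slc25a31, Smc1b and Stra8). Over all tested genes the block raised the calls as well, from 231 to 502 higher and from 293 to 613 lower. In the fit without the block, 2 members were called when replicate 2 of −N was left out. Brdt was at 6.07 to 19.4 CPM in +E+N and 1.59 to 4.68 CPM in −N (-2.08 ± 0.51, adjusted p = 0.0215 without the block).

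The loss of both factors in 2i/LIF changed 8 of 36 members. Higher were 4 (11.1%), against 9.06% of all tested genes, and lower were 4 (11.1%), against 9.56%, and the median was 0.01 for both the members and all tested genes. Of the 31 members with 20 counts or more in every library of both states, 2 were higher and 4 lower, against 6.76% and 8.58% of all such genes. The lower members were Dazl, Smc1b, Sycp3 and Hormad1. Dazl fell to 14.1, 16.0 and 16.1 CPM (-1.76 ± 0.21, adjusted p = 3.33e-05) and Smc1b to 8.75, 9.01 and 9.88 CPM (-1.29 ± 0.13, adjusted p = 1.29e-05). Sycp3 fell from 24.0, 23.9 and 20.4 CPM to 13.1, 11.6 and 10.1 CPM (-0.96 ± 0.14, adjusted p = 0.000196) and Hormad1 from 30.2, 37.4 and 40.3 CPM to 22.3, 23.9 and 22.9 CPM (-0.63 ± 0.11, adjusted p = 0.000684). The libraries of the states did not overlap for these genes, which were picked by their calls on the same libraries. Smc1b, Hormad1 and Sycp3 were called lower after the loss of both factors in each medium, in comparisons with separate +E+N libraries. How many of all tested genes were called lower in both media was not counted. Hormad1 lost its call in 2i/LIF when the replicate 3 libraries were left out. Sycp3 was not called in FCS/LIF by limma on log2(TPM + 1), and Smc1b kept its calls in these fits. In 2i/LIF Dmrt1, lower in −N, was at 49.8, 40.9 and 67.0 CPM in −E−N, which overlaps +E+N (-0.32 ± 0.16, adjusted p = 0.129).

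The higher members in 2i/LIF −E−N were Spo11, Piwil4, Tdrd1 and Rec8. Rec8 rose from 3.85, 5.02 and 5.36 CPM to 10.3, 9.43 and 16.5 CPM (1.36 ± 0.24, adjusted p = 0.000745). Piwil4 rose to 6.61 to 10.3 CPM (2.68 ± 0.32, adjusted p = 3.43e-05) and Tdrd1 from 0.209 to 0.595 CPM to 1.61 to 1.96 CPM (2.29 ± 0.33, adjusted p = 0.00015). Spo11, the enzyme that makes the breaks of meiotic recombination, had 0, 5 and 1 counts in +E+N and 25, 28 and 38 counts in −E−N. The ratio of its summed levels was 14.9, with an exact 95% counting interval of 6.59 to 41.7, which covers counting error only. Spo11 and Tdrd1 reached 20 counts in every replicate through −E−N and not through +E+N. Markers of 2-cell-like cells rose in the same libraries, from a summed 11.7 to 19.6 CPM in +E+N to 49.0 to 114 CPM in −N and 182 to 460.0 CPM in −E−N, and all 9 that were tested were called higher in −E−N. Trophectoderm markers were at a summed 317 to 500 CPM in −E−N, against 85.8 to 99.1 CPM in +E+N. Of 5 tested, 4 were called higher. The part of either marker set in the rises of the 4 members was not tested.

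Set against −N in 2i/LIF, −E−N had 4 of 36 members higher (11.1%), against 3.39% of all tested genes, and 0 lower in edgeR, against 3.36%, with a median of 0.26 over the members and 0.02 over all tested genes. Spo11, one of the 4, reached 20 counts through −E−N alone. Of the 31 members that reached it in both states, 3 were higher, against 2.94% of all such genes. At an unadjusted p under 0.05 there were 17 in either direction, and DESeq2 called 5, all higher, while either limma fit called 1. Rec8 rose from 5.63, 4.91 and 5.54 CPM in −N (1.19 ± 0.24, adjusted p = 0.00502) and Hormad2 from 13.3, 13.4 and 10.8 CPM to 17.8, 20.0 and 19.25 CPM (0.62 ± 0.13, adjusted p = 0.0059). Tdrd9 rose from 1.03 to 1.42 CPM to 2.23 to 3.72 CPM (1.25 ± 0.28, adjusted p = 0.00854). Spo11 had 7 counts over the 3 −N libraries and 91 over the 3 −E−N libraries, a ratio of 11.97 with a counting interval of 5.58 to 30.6. Same-numbered libraries deviated together here as well, and with the block 8 were called, all higher: these 4 with Dmrt1, Stra8, Tdrd5 and Tdrd7. Of all tested genes the block called 936 higher and 686 lower, against 487 and 483 without it. In the fit without the block, 1 member was called when replicate 2 or 3 of −N or replicate 3 of −E−N was left out. With all replicate 3 libraries of 2i/LIF left out, an alternative added after the data were seen, 0 were called.

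Replicate 3 of 2i/LIF was often the highest library for these genes. Of the 36 members tested in 2i/LIF, replicate 3 was the highest library for 19 (+E+N), 24 (−E), 15 (−N) and 23 (−E−N), against 31.7% to 39.9% of all tested genes in the 4 states. Stra8, Brdt, Smc1b, Mael, Stk31, Tdrd7 and Mov10l1 were highest in replicate 3 in every state. So was Dmrtb1, which was not among the members tested within 2i/LIF. For Stra8 the −E−N libraries were at 121, 128 and 346 CPM and the −N libraries at 37.1, 76.9 and 118 CPM. With the replicate 3 libraries left out, the numbers called against +E+N were 0 (−E), 4 (−N) and 7 (−E−N). Of these, 3 (−N) and 6 (−E−N) were also called with all libraries. The calls of Dazl in −N (adjusted p = 0.0162) and of Hormad1 and Spo11 in −E−N were lost, and Brdt was called in both.

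**Figure D3:**
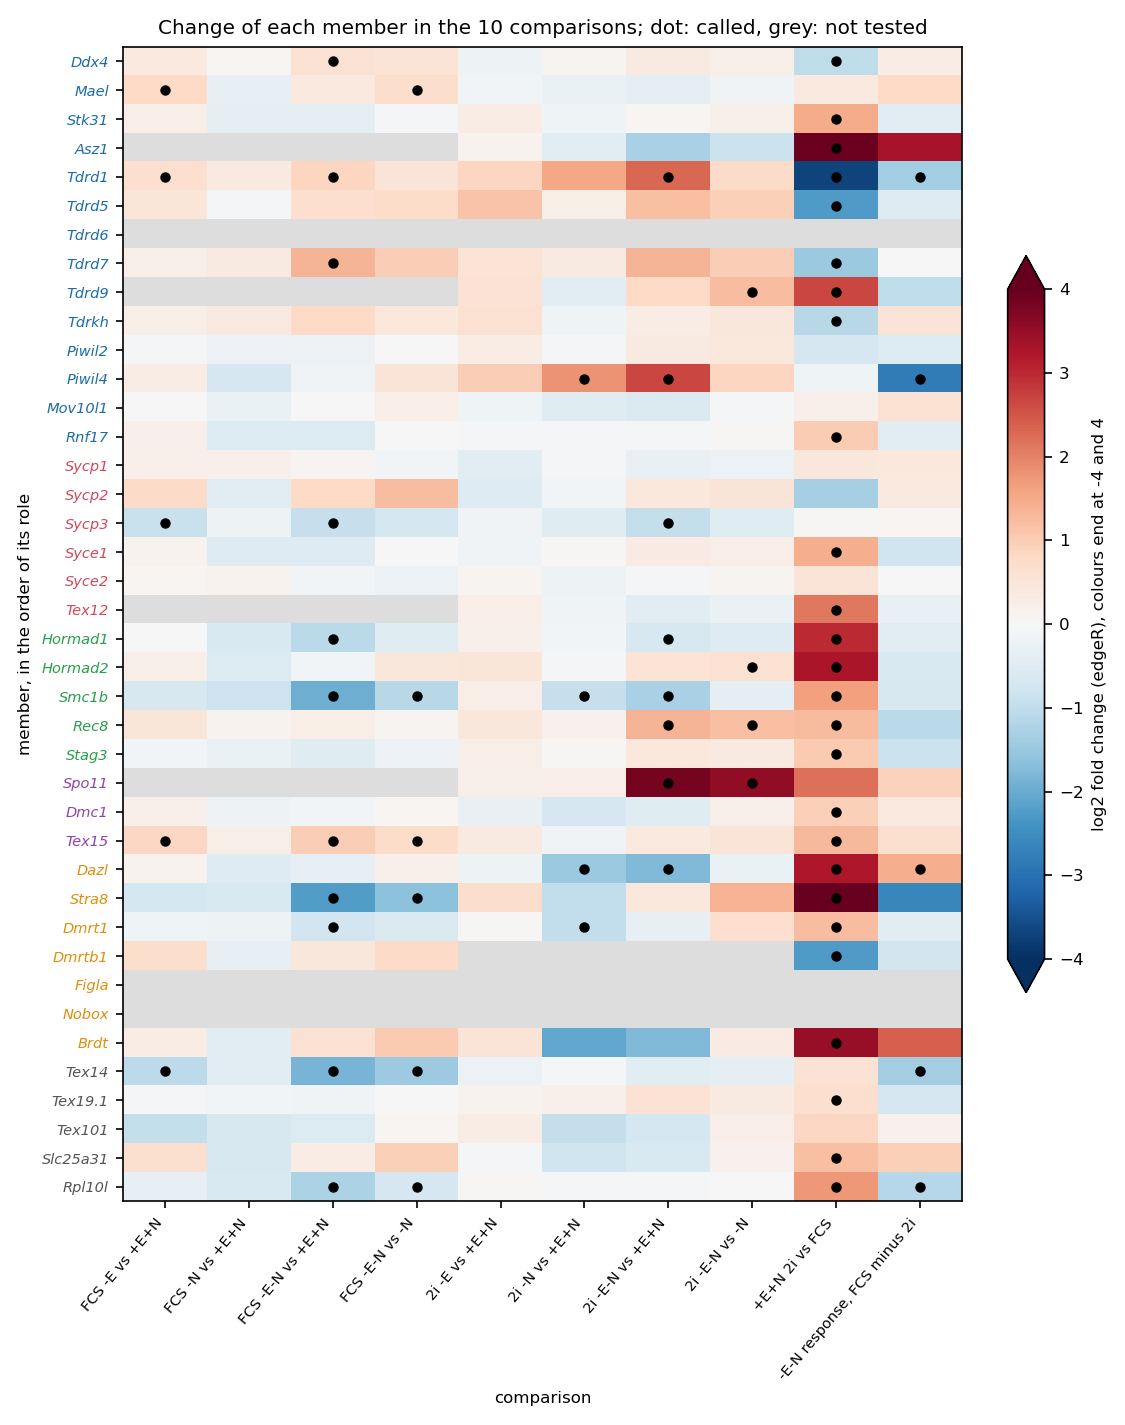
Log2 fold change (colour, edgeR) of the 40 members (y axis, symbols coloured by role as in the plot of levels) in the 10 comparisons (x axis), with a dot where a member was called and grey where it was not tested. The column of the media has 26 dots, and the columns of −N in FCS/LIF and −E in 2i/LIF have 0.

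The response to the loss of both factors was compared between media in a fit of all 20 libraries, with a call at an adjusted p under 0.01 and no fold limit. It differed for 5 of 37 members. The response was more positive in FCS/LIF for 1 (2.70%), against 7.3% of all 16147 tested genes, and more negative for 4 (10.8%), against 5.93%. The median difference was -0.41 over the members and -0.01 over all tested genes. Tex14 fell by 1.87 in FCS/LIF and by 0.45 in 2i/LIF, where its libraries were at 19.24, 22.7 and 22.4 CPM in +E+N and 16.4, 13.7 and 16.6 CPM in −E−N (difference -1.39 ± 0.19, adjusted p = 6.58e-05). Rpl10l fell by 1.26 in FCS/LIF and was at 249.7, 242 and 242 CPM in +E+N and 246, 234 and 208 CPM in −E−N of 2i/LIF (difference -1.15 ± 0.13, adjusted p = 1.48e-05). Rpl10 differed in the same direction, by -0.48 ± 0.08. Both members fell further in FCS/LIF.

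Piwil4 changed by -0.15 ± 0.34 in FCS/LIF, where it lay between 1.09 and 1.65 CPM in +E+N and −E−N, and by 2.68 ± 0.32 in 2i/LIF (difference -2.80 ± 0.50, adjusted p = 0.000708). Dazl changed by -0.33 ± 0.26 in FCS/LIF and by -1.76 ± 0.21 in 2i/LIF (difference 1.46 ± 0.36, adjusted p = 0.00759). Tdrd1 rose in both media, by 0.87 in FCS/LIF and 2.29 in 2i/LIF (difference -1.39 ± 0.34, adjusted p = 0.00722). In limma on log2(TPM + 1) this difference for Tdrd1, which in 2i/LIF +E+N was below 20 counts, turned to 0.25. Dazl and Tdrd1 were near the threshold, and the count was 3 when replicate 1 or 2 of FCS/LIF +E+N or −E−N, replicate 3 of 2i/LIF +E+N, or replicate 2 or 3 of 2i/LIF −E−N was left out. Stra8 changed by -2.23 in FCS/LIF but by 0.41 in 2i/LIF, and the difference of -2.60 ± 1.47 did not pass (adjusted p = 0.222).

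**Figure D4:**
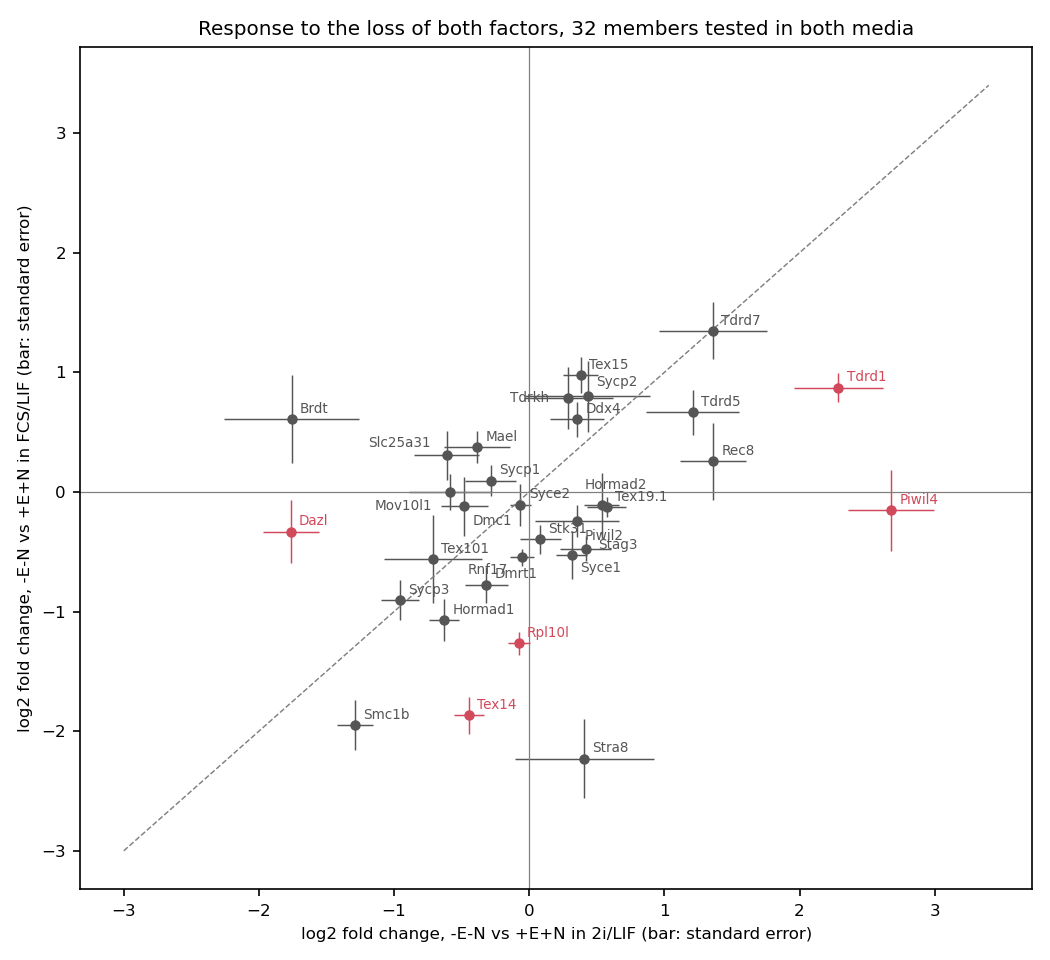
Log2 fold change of −E−N against +E+N in 2i/LIF (x axis) and FCS/LIF (y axis) for the 32 members tested in both media, with bars for the standard error and a dashed line where both are equal. The 5 members whose response differed between media are red, and Sycp3 lies near the line, at -0.96 (2i/LIF) and -0.91 (FCS/LIF).

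**Figure D5:**
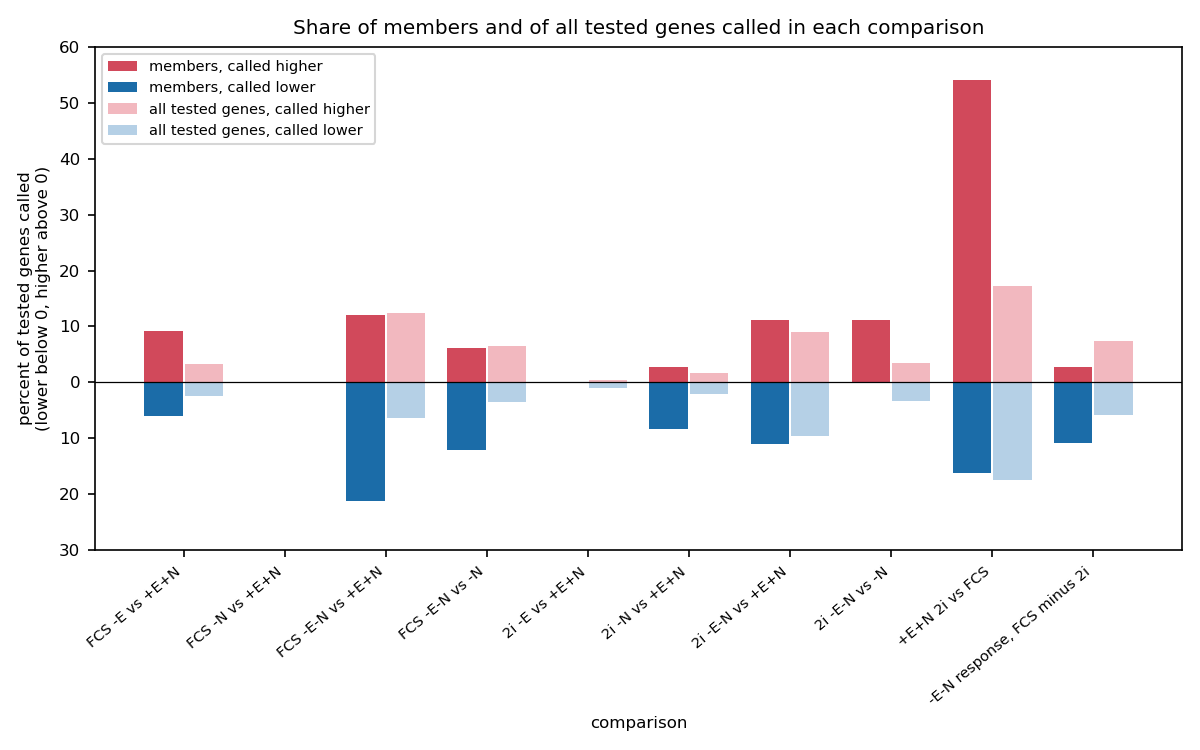
Percent of tested members (strong colours) and of all tested genes (pale colours) called higher (above 0) and lower (below 0) in each of the 10 comparisons. The largest gap is in the medium comparison, with 54.1% of members and 17.2% of all genes higher in 2i/LIF.

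Wider lists of related genes gave the following counts, to be read against all tested genes, of which 17.2% were higher and 17.5% lower between the media, 12.4% and 6.4% in FCS/LIF −E−N, and 9.06% and 9.56% in 2i/LIF −E−N. Of 34 other meiosis genes in the table, 29 were tested between the media, with 10 higher and 3 lower in 2i/LIF. In −E−N, 1 rose and 5 fell of 28 in FCS/LIF, and 0 rose and 9 fell of 28 in 2i/LIF. Among them were Rec114, a partner of Spo11 (2.70 ± 0.16 between the media), Majin (2.69 ± 0.35) and Terb2 (2.43 ± 0.26), which tether telomeres to the nuclear envelope in meiosis, and Spata22, which acts in recombination and fell by 3.73 in 2i/LIF −E−N. Of 17 other piRNA pathway genes, 15 were tested between the media, with 4 higher and 3 lower in 2i/LIF: Fkbp6 (4.44 ± 0.15), Gpat2 (3.21 ± 0.12) and Gtsf1 (2.35 ± 0.27) were higher and Ddx25 (-2.83 ± 0.18) lower. In −E−N, 0 rose and 5 fell of 15 in FCS/LIF, and 3 rose and 1 fell of 14 in 2i/LIF. Of 12 primordial germ cell genes, 5 were higher and 3 lower in 2i/LIF, among the former Prdm14 (3.24 ± 0.15) and Kit (2.95 ± 0.13), 1 rose and 5 fell in FCS/LIF −E−N, with Fgf8 at 3.18 ± 0.43, and 2 rose and 4 fell of 11 in 2i/LIF −E−N. Dppa3, a gene of germ cells and the egg, rose by 3.43 ± 0.36 in the latter. Of the 22 genes on the repressor list, 1 rose and 4 fell in FCS/LIF −E−N. In 2i/LIF −E−N, 2 rose and 3 fell of 21. The falls in each medium include Tet1 and Tet2, which act to remove methylation, and Tet2 fell by 2.20 in FCS/LIF. Dnmt3a was also among the falls in FCS/LIF −E−N, and the 2 rises in 2i/LIF −E−N were Dnmt3b and Dnmt3l.

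Tested and called in no comparison by edgeR without the block were 6 members. Of these, DESeq2 called Sycp2 lower in 2i/LIF +E+N and higher in FCS/LIF −E−N against −N. By their mean over the 8 groups, Piwil2 lay between 3.04 and 5.34 TPM, Mov10l1, the helicase of piRNA formation, between 2.70 and 4.17 TPM, and Sycp1, the transverse filament protein, between 2.64 and 4.71 TPM. Syce2 lay between 57.3 and 83.3 TPM, Sycp2 between 0.107 and 0.990 TPM and Tex101, a surface protein of germ cells, between 1.05 and 3.86 TPM. In all, 31 of the 40 members were called in at least 1 of the 10 comparisons, 18 of them in a comparison within a medium. This is an account of the members, because the share of all genes called over the 10 comparisons was not computed. The medium comparison alone called 5607 of all 16147 tested genes.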

How the data were processed

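RNA-seq of 20 ESC libraries was analysed. The authors aligned reads to mm10 with STAR and estimated counts with RSEM, and the deposited expected counts are whole numbers without normalization between libraries. The deposited TPM come from the same RSEM run of the authors. The paper describes the libraries as stranded, but tool versions and the strand setting of the counting are not given in the sources used here. The 92 ERCC rows were left out. The members and all gene lists were chosen with earlier results of these data known.

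For each medium, 1 fit in edgeR 4.0.16 (R 4.3.3, TMM, quasi-likelihood) covered its 4 states. A gene was tested if some group had 20 counts or more in each of its libraries, which left 15636 genes (FCS/LIF) and 14355 genes (2i/LIF). Comparisons between media used all 20 libraries (16147 genes). Each edgeR SE is the absolute log2 fold change divided by the square root of the F statistic of its quasi-likelihood test. Intervals of log2 fold changes are normal 95% intervals from that SE, which make no allowance for the small number of libraries. Promoters came from RefSeq, and exon overlaps from GENCODE vM21. Alternatives were DESeq2 1.42.0, its size factors in edgeR, filterByExpr, a minimum of 1 count in place of the filter, the replicate number as a block, limma 3.58.1 on TPM after adding 1 or 0.1 and taking log2, an adjusted p under 0.05, and leaving out each library. The study calls its replicates independent experiments, and the labels give only their number, so p-values measure the spread between these libraries, which may be technical. Deviations of same-numbered libraries from their group means correlated in every pair for 2i/LIF +E+N with −E (lowest 0.187), +E+N with −N (0.170) and −N with −E−N (0.155), but not for +E+N with −E−N (-0.0126). FCS/LIF has only 2 pairs. The steps were tested on simulated data. Members called in at least 1 comparison were named, the 18 of highest mean TPM by library and the others by range, with up to 4 called genes of each wider list by size of change. Intervals on counts cover counting error only.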

Additional observations from a re-analysis of the deposited data

Results flagged for a closer look

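The response to the loss of both factors differed between FCS/LIF and 2i/LIF for 5 members by a test of the difference itself, in the fit of all 20 libraries. The log2 response in FCS/LIF minus that in 2i/LIF was -1.39 for Tex14, -1.39 for Tdrd1, -2.80 for Piwil4, -1.15 for Rpl10l and 1.46 for Dazl. Tex14, Piwil4 and Rpl10l stayed past the threshold when any single library was left out, while Dazl and Tdrd1 did not. For Tdrd1 the difference turned to 0.25 in limma on log2(TPM + 1). No group had enough libraries for the rule on single outlying samples, which needs at least 4.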

How the results depend on the processing

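The numbers of members called changed with the following settings, and the cause was not tested except where fewer libraries or another threshold entered by construction. Under an adjusted p below 0.05, the count was 1 for FCS/LIF −N, 11 for FCS/LIF −E−N against −N, 7 for 2i/LIF −N, 13 for 2i/LIF −E−N and 12 for the difference between media in the response. DESeq2 gave 1 for FCS/LIF −N, 7 for 2i/LIF −N and 8 for that difference. Without the filter on low counts there were 2 for FCS/LIF −N, 13 for FCS/LIF −E−N against −N and 12 for the difference. Limma on log2(TPM + 1) gave 2 for FCS/LIF −E, 7 for FCS/LIF −E−N and 1 for 2i/LIF −E−N against −N, and with 0.1 added it gave 2 for FCS/LIF −E, 3 for FCS/LIF −E−N against −N, 1 for 2i/LIF −E−N against −N and 3 for the difference. The difference for Tdrd1 turned to 0.25 in limma on log2(TPM + 1). With the replicate block the counts were 2 for FCS/LIF −N (Rpl10l and Smc1b, lower), 11 for FCS/LIF −E−N against −N, 1 for 2i/LIF −E, 9 for 2i/LIF −N, 13 for 2i/LIF −E−N (7 higher and 6 lower), 8 for 2i/LIF −E−N against −N and 11 for the difference, and all 69 calls made without the block held. Among members called nowhere else, the block called Piwil2 (between media) and Sycp2. Over all tested genes the block also raised the calls, for 2i/LIF −E−N from 1300 to 1643 higher and from 1372 to 1643 lower. In FCS/LIF, the correlation of same-numbered libraries over the 6 pairs of states ran from 0.0361 (+E+N with −E) to 0.360 (+E+N with −N). With replicates 1 and 2 of 2i/LIF alone, chosen after seeing the data, 2i/LIF −E−N against −N gave 0.

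Leaving out 1 library at a time, the counts ranged from 0 to 5 for FCS/LIF −E, 0 to 0 for FCS/LIF −N, 7 to 12 for FCS/LIF −E−N and 1 to 10 for FCS/LIF −E−N against −N. In 2i/LIF they ranged from 0 to 0 for −E, 2 to 4 for −N, 7 to 11 for −E−N and 1 to 4 for −E−N against −N. Between media they ranged from 20 to 27 for +E+N, and from 3 to 7 for the difference in response. Of the 69 calls, 38 held in every such fit, and DESeq2 kept 68, all but that of Stra8 in FCS/LIF −E−N against −N. DESeq2 size factors in edgeR changed the sign of 0 of 69.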
